A study of Mus musculus with 12 samples.

Results

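Islets of NOD mice that carry a beta cell antigen transgene were compared with islets of NOD mice without it. The comparison uses 6 of the 12 libraries of the study, 3 with the transgene and 3 without, each from 1 mouse; the other 6 libraries are the same comparison on the C57BL/10 background. The transgene, insHEL, puts hen egg lysozyme under the control of an insulin promoter, so that the foreign protein is made by insulin-producing cells. The group called NOD is NOD/LtJ without the transgene and the group called NOD_insHEL is NOD/LtJ with it. Mice of both groups were males of 11 weeks, lacked a Rag gene and therefore mature T and B cells, carried the k haplotype of the major histocompatibility complex (MHC) from another strain, and were normoglycemic. The groups called B10 and B10_insHEL are C57BL/10 mice of the same sex, age, Rag status and haplotype. The strain names give the transgene as 1 founder line made on a B6 background. Collagenase digestion took place with α-amanitin and actinomycin D, which block transcription, and islets were picked by hand after a dextran gradient. The islets picked numbered 53, 137 and 108 in the NOD mice and 114, 94 and 77 in the NOD_insHEL mice.

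Beta cells make insulin as a precursor that enters the endoplasmic reticulum (ER) through the translocon, is folded and joined by disulfide bonds with the help of chaperones, moves to the Golgi in coated vesicles and is cut by prohormone convertases in secretory granules. When proteins crowd the ER, the unfolded protein response (UPR) raises the genes of chaperones, of translocation and of export, and slows translation through the PERK branch, whose transcription factor ATF4 drives the integrated stress response. NOD mice develop autoimmune diabetes that depends on T cells, and the lack of lymphocytes here leaves the islet tissue itself to be measured.

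The libraries held 11874188, 13240553 and 6765595 counts in NOD replicates 1 to 3 and 10841939, 7784092 and 2212062 counts in NOD_insHEL replicates 1 to 3. NOD_insHEL replicate 3 was the shallowest of the series, and a count of 0 there allows a level of up to 1.41 CPM (counts per 1000000 of the library total, scaled by edgeR's TMM factors throughout). Insulin transcripts of Ins1 and Ins2 made up 22.4% to 25.6% of the counts in the 6 libraries. Of 20 lymphocyte markers, 3 passed the filter on low counts, and 8, among them Cd3d, Cd3e and Ms4a1, had 0 counts in all 6 libraries. The summed level of 29 acinar markers was 236 to 393 CPM in NOD and 159 to 212 CPM in NOD_insHEL, and Prss1, Ptf1a, Amy2a1 and Cela3a were at 0. Alpha cell markers summed to 8246 to 23834 CPM in NOD and 21882 to 31225 CPM in NOD_insHEL, macrophage markers to 252 to 365 and 289 to 366 CPM, and duct markers to 939 to 1055 and 942 to 1018 CPM.

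H2-K1, a classical MHC class I gene, changed most. Its gene (ENSMUSG00000061232) lies at chr17:33996017-34000347 of GRCm38, minus strand. It was counted at 227, 276 and 291 CPM in the NOD libraries and at 5027, 4832 and 4458 CPM in the NOD_insHEL libraries. Every library with the transgene was far above every library without it, 18.0-fold by the fit (log2 4.17, SE 0.15, edgeR adjusted p = 1.97e-13). On the other background the same gene was 4.74 higher on the log2 scale. Membrane-bound lysozyme constructs are known to carry a class I H-2K anchor, and the strain names give the transgene as ILK3mHEL; whether the counts come from the construct or from the resident gene was not tested, and reads can be shared among class I genes. B2m, the light chain that class I molecules need at the surface, had a log2 difference of -0.25 (adjusted p = 0.261). H2-Q4, another class I gene with near-identical relatives, fell from 57.7 ± 7.73 to 37.2 ± 4.22 CPM (SD, n = 3; log2 -0.61, edgeR adjusted p = 0.0103). The construct itself has no entry in the counts.

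**Figure D1:**
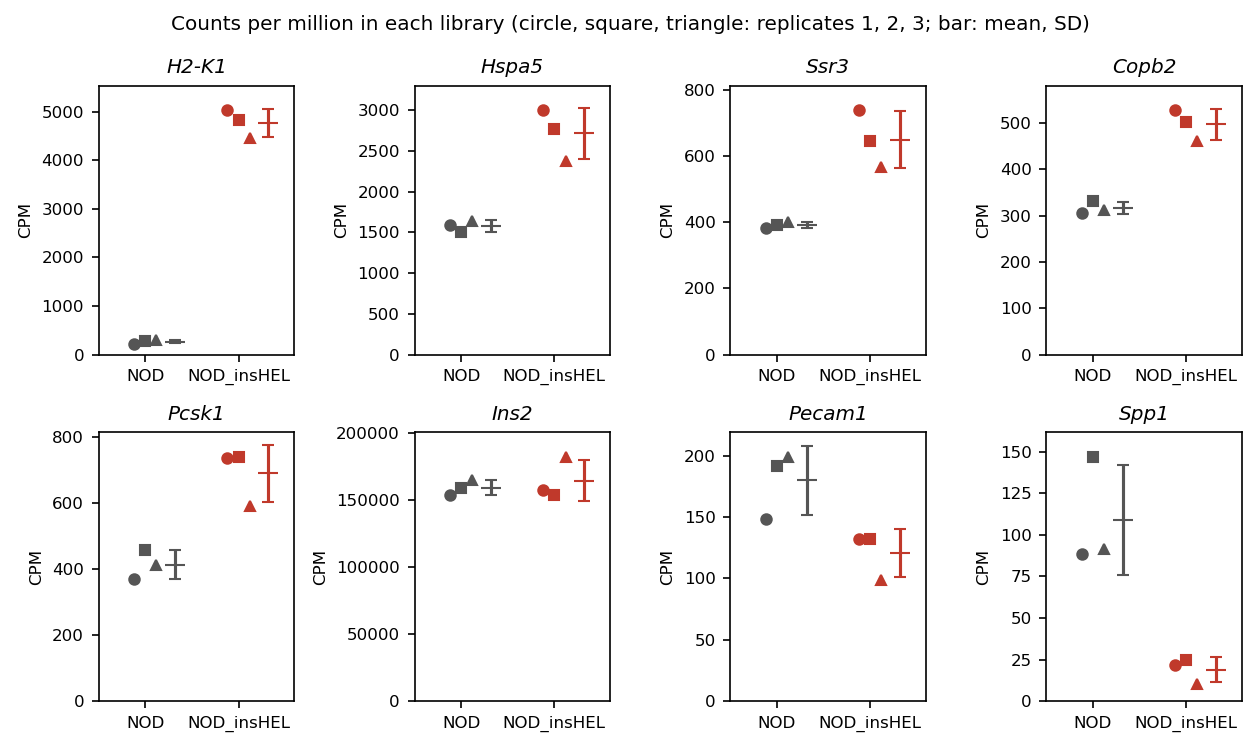
CPM of 8 genes in each of the 3 NOD and 3 NOD_insHEL libraries, with the mean and SD beside the points. H2-K1 rises from at most 291 to at least 4458 CPM, Hspa5, Ssr3, Copb2 and Pcsk1 are higher in every library with the transgene, Ins2 overlaps between the groups, and Pecam1 and Spp1 are lower.

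Across the 15352 genes tested, 1084 differed between NOD_insHEL and NOD at an edgeR adjusted p under 0.05 (7.06%), 596 higher (3.88%) and 488 lower (3.18%) with the transgene. A gene is called changed below when it passed that test. The changes were mostly small: 64 of the higher and 87 of the lower genes differed at least 2-fold. The 3 and 3 libraries did not overlap for 4087 genes (26.6%). At an unadjusted edgeR p under 0.05 there were 3614 of the 15352 genes, and DESeq2 called 1404. These are the backgrounds for such counts in the lists below. The count of called genes changed with the library left out: it was 107 without NOD_insHEL replicate 1, 171 without replicate 2 and 1348 without the shallow replicate 3. Without NOD replicate 1 it was 844, without NOD replicate 2 it was 362 and without NOD replicate 3 it was 396. The part that depth has in this was not tested.

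The effect followed the base composition of the transcripts. Called genes that were higher had a median GC content of 44.4%, those that were lower 56.6%, and all genes tested 49.6%. Of 5 equal bins of genes by GC content, the lowest had a median log2 difference of 0.17, with 272 genes higher and 17 lower, and the highest had -0.25, with 14 higher and 293 lower. The same medians on the other background were 0.01 and -0.05. Taken library by library against the mean of the NOD libraries, the lowest bin stood at 0.04, -0.02 and -0.01 in NOD replicates 1 to 3 and at 0.15, 0.22 and 0.13 in NOD_insHEL replicates 1 to 3. The 6 libraries of the other background, with and without the transgene, lay between 0.12 and 0.23, on the side of NOD_insHEL. The highest bin mirrored this, at -0.19 to -0.29 in NOD_insHEL and -0.17 to -0.37 in the other background. The part that GC content has in any single gene's change was not tested, so values with a GC offset, a per-library curve of log2 ratio on GC content removed before the test, are given beside the groups below. With the offset 421 genes were called, 262 higher (1.71%) and 159 lower (1.04%), and 332 of the 421 were called in the same direction without it.

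**Figure D2:**
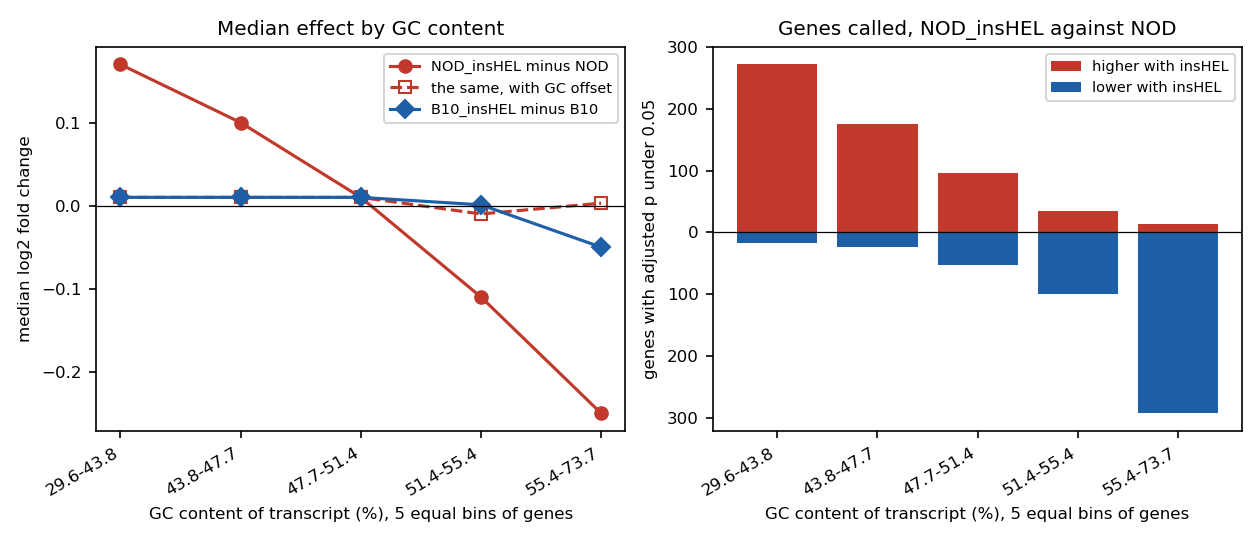
Left, median log2 difference by bin of transcript GC content for NOD_insHEL minus NOD, for the same with the GC offset, and for B10_insHEL minus B10. Right, genes called higher (upward) and lower (downward) in NOD_insHEL in each bin. The NOD medians fall from 0.17 to -0.25 while the B10 medians stay between 0.01 and -0.05.

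ER chaperones and folding enzymes were higher in the transgenic islets. Of 29 genes tested on that list, 13 rose and none fell, and the median log2 difference was 0.50, beside -0.01 over all genes. Hspa5, which encodes BiP, the main Hsp70 of the ER, was at 1596, 1502 and 1643 CPM in NOD and at 2997, 2771 and 2379 CPM in NOD_insHEL. All 3 transgenic libraries exceeded all 3 others, by 1.72-fold in the fit (log2 0.78, SE 0.16, edgeR adjusted p = 0.00848). Pdia3, a disulfide isomerase that works on glycoproteins and in class I loading, was at 1373, 1240 and 1134 CPM in NOD and at 2161, 2054 and 1868 CPM in NOD_insHEL (log2 0.70, SE 0.12, adjusted p = 0.00432). Pdia3 was the 1 chaperone of the 13 still called without NOD_insHEL replicate 1. The largest differences on the list among called genes were those of Sdf2l1, a partner of BiP, at 98.7 ± 5.12 against 183 ± 34.7 CPM (SD, n = 3; log2 0.90), and Dnajb9, a J-domain cochaperone, at 313 ± 23.7 against 561 ± 71.6 CPM (log2 0.85). Hsp90b1 (GRP94), Dnajc3, Hyou1, Pdia4, Pdia6, P4hb, Manf, Selenos and the lectin chaperone Calr made up the rest, with log2 differences of 0.44 for Calr to 0.73 for Dnajc3. With the GC offset 8 of the 29 were called, with a median of 0.45, and on the other background 21 were called higher.

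The promoters of these genes are shown because the ER stress response element, the site through which ATF6 and NF-Y act on chaperone genes, stands in several of them. The element was searched as CCAAT, 9 bases of any kind (N) and CCACG, on both strands, in RefSeq promoters of GRCm38.p6 that run from 250 bases before to 50 after each start site; overlap with other motifs was not looked at. It was found in 37 of 27025 genes of that table (0.137%) and in 18 of the 11149 tested genes that the table holds (0.161%). It was present in 7 of 24 ER chaperone genes of the table (29.2%) and in 5 of the 11 that rose (45.5%). Those 5 are printed 5′ to 3′ on the strand of the gene, with the element in capitals; on the opposite strand it reads CGTGG, 9 bases and ATTGG. Bases inside an annotated protein-coding gene were left out, and for Hspa5 this leaves the element with 5 bases on each side.
Hspa5 (chr2:34772020-34772048, plus strand): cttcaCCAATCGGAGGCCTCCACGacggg
Hsp90b1 distal (chr10:86705598-86705694, minus strand): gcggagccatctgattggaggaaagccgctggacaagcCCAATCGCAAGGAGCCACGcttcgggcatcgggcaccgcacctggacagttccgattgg
Hsp90b1 proximal (chr10:86705510-86705591, minus strand): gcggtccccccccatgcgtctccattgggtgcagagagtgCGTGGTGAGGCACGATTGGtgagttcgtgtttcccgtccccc
Dnajc3 (chr14:118937787-118937885, plus strand): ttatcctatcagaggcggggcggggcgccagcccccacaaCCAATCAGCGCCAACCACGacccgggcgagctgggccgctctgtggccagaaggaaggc
Pdia6 (chr12:17266451-17266544, plus strand): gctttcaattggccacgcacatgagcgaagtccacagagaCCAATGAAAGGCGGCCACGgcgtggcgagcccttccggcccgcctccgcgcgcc
Calr (chr8:84847035-84847133, minus strand): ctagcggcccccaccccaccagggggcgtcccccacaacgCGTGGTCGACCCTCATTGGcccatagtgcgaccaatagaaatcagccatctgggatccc
Hsp90b1 holds the element 2 times, once on each strand. Canx and Creld2, chaperone genes with the element, were not called, nor were the degradation genes Derl3 and Syvn1 that also hold it. The element was in none of 21 translocation, 23 ER-Golgi and 27 beta cell function genes of the table. As it stands in only 0.161% of tested genes, its absence does not set these lists apart. A match shows only that these letters stand in the window.

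Genes of protein entry into the ER rose together with the chaperones. Of 28 genes for the signal recognition particle, the translocon, signal peptidase and N-glycosylation, 17 rose and none fell, with a median log2 difference of 0.45 and all 28 values above 0. Ssr3, a subunit of the translocon-associated complex, was at 382, 393 and 400.5 CPM in NOD and at 738, 645 and 566 CPM in NOD_insHEL (log2 0.73, SE 0.13, edgeR adjusted p = 0.00444). The groups did not overlap, and Ssr3 was the 1 member that stayed called without NOD_insHEL replicate 1. Stt3a, the catalytic subunit of the oligosaccharyltransferase, rose from 294 ± 19.6 to 439.6 ± 30.5 CPM (SD, n = 3; log2 0.58, adjusted p = 0.00848). Spcs1, of signal peptidase, rose by 0.56 and Tram1, a translocon partner, by 0.55 on the log2 scale. Sec61b, a subunit of the channel itself, went from 65.2 ± 6.10 to 88.7 ± 1.54 CPM (log2 0.45, adjusted p = 0.0206). The oligosaccharyltransferase subunits Rpn1, Rpn2, Ddost and Ostc were also among the 17. With the GC offset 6 of the 28 were called (median 0.38), with each library thinned to the shallowest 10, and 10 when the acinar score entered the model.

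Export from the ER followed the same direction. Of 28 ER-Golgi transport genes, 14 rose and none fell (median log2 0.38). Copb2, a subunit of the COPI vesicle coat, was at 306, 331 and 311 CPM in NOD and at 527, 503 and 461 CPM in NOD_insHEL (log2 0.66, SE 0.11, edgeR adjusted p = 0.00238). Copb1, of the same coat, rose by 0.63 on the log2 scale, and these 2 were called whichever single library of the 6 was left out. Of the COPII coat that forms at the ER exit, Sec24d went from 128 ± 19.0 to 212 ± 40.6 CPM and Sec23b from 163 ± 11.9 to 273 ± 13.2 CPM (SD, n = 3; log2 0.74 each, adjusted p = 0.0211 and 0.0159). Lman1, the cargo receptor ERGIC-53, rose by 0.61, and Bet1, a SNARE of ER-Golgi fusion, by 0.71. Kdelr3, a receptor that returns chaperones to the ER, was at 11.0, 9.74 and 13.1 CPM in NOD and at 31.3, 30.1 and 10.3 CPM in NOD_insHEL. The shallow NOD_insHEL replicate 3 lay within the NOD range, while replicates 1 and 2 were high (log2 1.21, SE 0.25, adjusted p = 0.0110). With the GC offset 7 of the 28 were called, with a median of 0.33.

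ER-associated degradation moved in the same direction with fewer calls, and the UPR sensors and the stress response downstream of PERK held 1 call or none. Of the degradation genes 15.0% were called higher, beside 3.88% of all genes, and 19 of 20 values were above 0. At an unadjusted p under 0.05, 11 of the 20 were higher, and DESeq2 called 7 higher. With the GC offset 3 were called higher, and on the other background 9. Of 20 degradation genes 3 rose (median log2 0.29): Edem3, a mannosidase that marks misfolded glycoproteins, from 147 ± 4.16 to 229 ± 33.5 CPM (SD, n = 3; log2 0.65, edgeR adjusted p = 0.00432), Erlec1, a lectin of the same route, by 0.65, and Selenos, which both lists hold. Of 16 UPR sensors and transducers 1 was called, Mbtps2, the site-2 protease that releases ATF6 (log2 0.58, adjusted p = 0.0365), and it was not called with the GC offset. Xbp1, the transcription factor of the IRE1 branch, was at 373 ± 10.2 CPM in NOD and 396 ± 28.1 CPM in NOD_insHEL (log2 0.09, adjusted p = 0.670); a count per gene does not show splicing of its mRNA. Of 30 genes of the integrated stress response, edgeR called none in either direction, and their median was -0.16; 3 had an unadjusted p under 0.05, and DESeq2 called 1 lower. Fitted on the 6 libraries alone, 1 of 28 was called higher and 1 lower. Atf4 differed by -0.08 on the log2 scale (adjusted p = 0.814), and Ddit3, which encodes CHOP, was at 32.5, 31.5 and 33.6 CPM in NOD and at 21.8, 32.7 and 13.1 CPM in NOD_insHEL (log2 -0.44, SE 0.33, adjusted p = 0.473). For Ddit3, 2 transgenic libraries lay below the NOD range and replicate 2 within it. Of 20 cytosolic tRNA synthetases 3 rose, Eprs (log2 0.45), Rars (0.47) and Dars (0.40), and none of the 20 with the GC offset.

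Put together, the 4 lists of chaperones, degradation, translocation and ER-Golgi transport had 46 genes that rose, 0 that fell and 58 not called. The log2 difference was above 0 for 100 of them, with a median of 0.39. On the other background 73 of the same genes were called higher (background 4.09% of all genes), with a median of 0.54. No member of the lists was called in the test of the difference between the backgrounds. That test called 9 of all genes (0.0586%), so the lack of a call does not show that the 2 effects are equal. The median NOD minus B10 difference of the effect was -0.14 for the 4 lists and -0.01 over all genes. The GC offset left 24 calls and a median of 0.37. Leaving out 1 library moved the count between 5, without NOD_insHEL replicate 1, and 49, without replicate 3, and the median between 0.34 and 0.45.

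**Figure D3:**
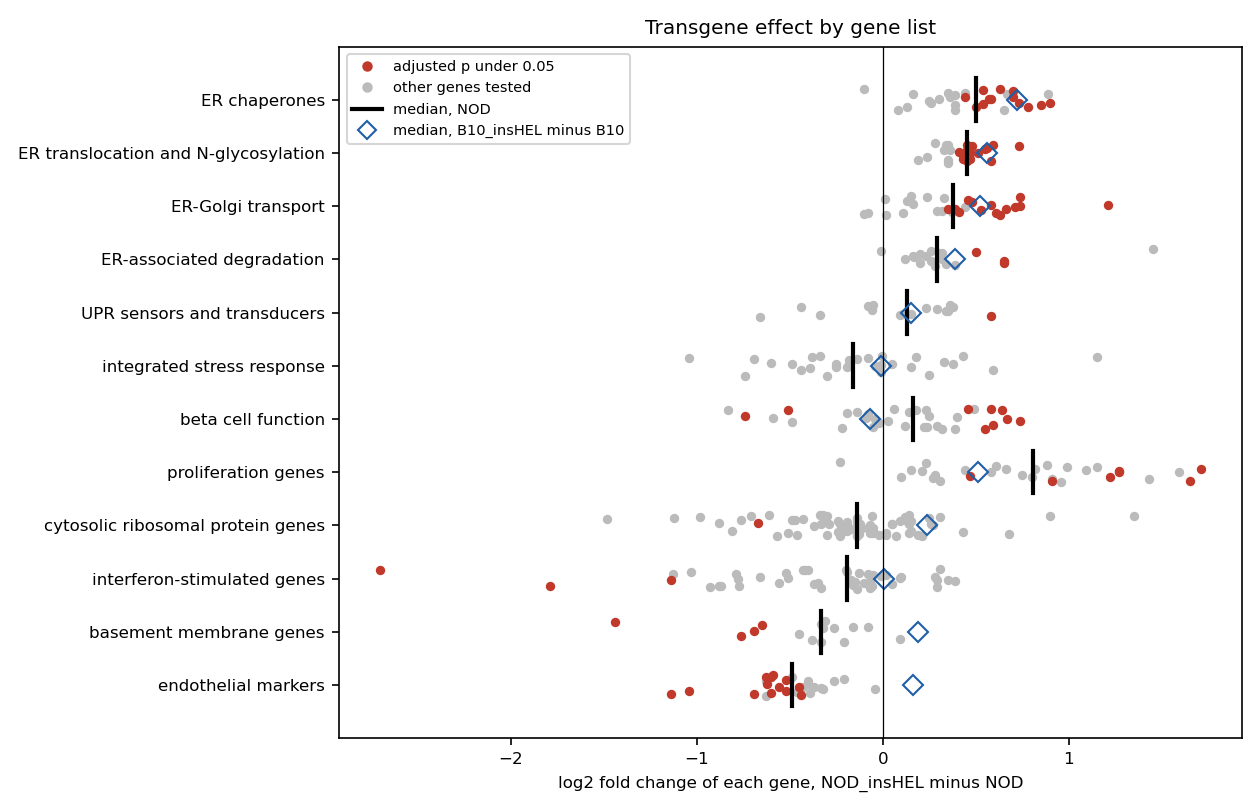
Log2 difference of each gene tested, NOD_insHEL minus NOD, for 12 gene lists; filled red points passed the edgeR test, black bars are the list medians and open diamonds the medians of B10_insHEL minus B10. Both medians of ER chaperones lie to the right of 0, at 0.50 and 0.72, while those of endothelial markers lie on opposite sides, at -0.49 and 0.16.

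Insulin itself was not called changed. Ins2 was at 153650, 158880 and 164970 CPM in NOD and at 157660, 154040 and 182260 CPM in NOD_insHEL (log2 0.05, SE 0.13, edgeR adjusted p = 0.865), and Ins1 differed by 0.09 (adjusted p = 0.757). Iapp, the amyloid peptide stored with insulin, was at 18841 ± 1730 and 23292 ± 1537 CPM (SD, n = 3; log2 0.31, adjusted p = 0.112). Of 34 beta cell function genes 7 rose and 2 fell (median log2 0.16), and the 7 that rose are Pcsk1, Pcsk2, Cpe, Scg5, Chgb, Scg2 and Scg3, which process prohormones or form granules. Pcsk1, the prohormone convertase that begins the cutting of proinsulin, was at 371, 459 and 413 CPM in NOD and at 738, 740.2 and 592 CPM in NOD_insHEL. The lowest transgenic library exceeded the highest other one, with a log2 difference of 0.74 (SE 0.11, adjusted p = 0.00220). Cpe, the carboxypeptidase that trims the cut ends, was at 3414, 3189 and 3255 CPM in NOD and at 5146, 5303 and 4430 CPM in NOD_insHEL (log2 0.59, SE 0.11, adjusted p = 0.00557). Pcsk2, the second convertase, rose by 0.46 (adjusted p = 0.0185), and its partner Scg5 by 0.58. The granins Chgb, Scg2 and Scg3, which help to form granules, rose by 0.64, 0.67 and 0.55. Chga, the granin with the highest count, was at 7278, 7204 and 6733 CPM in NOD and at 8112, 7518 and 9176 CPM in NOD_insHEL and was not called (log2 0.23, adjusted p = 0.288), though it was with the GC offset (0.48, adjusted p = 0.0447). The granule membrane proteins Ptprn (log2 0.22, adjusted p = 0.416), Ptprn2 and Slc30a8 were not called either. Pcsk1, Cpe, Chgb, Scg3 and Scg5 were called whichever single library of the 6 was left out, and with the GC offset. Pam, which amidates peptide hormones in granules, rose from 593 ± 46.3 to 931 ± 116 CPM (log2 0.65, adjusted p = 0.00432); it is on no list and was chosen after its values were seen, as were Nucb2, Emilin1 and Gas6.

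Among the 2 beta cell function genes that fell was a receptor. Gipr, the receptor of the incretin GIP, was at 127, 148 and 123 CPM in NOD and at 69.3, 64.0 and 111 CPM in NOD_insHEL (log2 -0.74, SE 0.19, edgeR adjusted p = 0.0340). The groups did not overlap, and the shallow NOD_insHEL replicate 3 was the nearest to NOD. Gipr was not called with the GC offset (adjusted p = 0.0798). Of 24 exocytosis genes 2 rose and 1 fell (median log2 0.07). Syt4, a synaptotagmin of dense granules, rose from 202 ± 16.2 to 343 ± 54.9 CPM (SD, n = 3; log2 0.77, adjusted p = 0.00432), Rab27a, a GTPase of granule docking, rose by 0.38, and Stx1a, a SNARE of exocytosis, fell by 0.86 on the log2 scale. With the GC offset, or with libraries thinned to the shallowest, 1 exocytosis gene was called higher and 0 lower. Of the genes normally silenced in mature beta cells, 25 tested, 1 fell, Mgst1 (log2 -1.76), and none rose.

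Endothelial genes were lower with the transgene. Of 27 markers tested 13 fell, none rose and no value was above 0, with a median log2 difference of -0.49. Pecam1, an adhesion molecule of endothelial junctions, was at 148, 192 and 199 CPM in NOD and at 132, 132 and 98.6 CPM in NOD_insHEL (log2 -0.56, SE 0.13, edgeR adjusted p = 0.0185). Tek, the receptor of the angiopoietins, was at 47.4, 60.0 and 56.9 CPM in NOD and at 34.7, 38.0 and 32.9 CPM in NOD_insHEL (log2 -0.63, SE 0.12, adjusted p = 0.00759). The groups did not overlap in either gene, and NOD replicate 1 was the nearest of its group to the transgenic libraries. Eng, a coreceptor of TGF-beta, fell by 0.69, Plvap, the protein of fenestral diaphragms, by 0.62, Vwf by 1.14 and Gpihbp1, which holds lipoprotein lipase on capillaries, by 1.04. Kdr, the main VEGF receptor, was at 292, 459.8 and 398 CPM in NOD and at 283, 302 and 229 CPM in NOD_insHEL and was not called (log2 -0.49, adjusted p = 0.0576). Summed over the list, the markers stood at 2333 to 3255 CPM in NOD, 1787 to 2134 CPM in NOD_insHEL, 1668 to 1871 CPM in B10 and 2024 to 2183 CPM in B10_insHEL, so the NOD group was the one above the rest. In bulk islets, fewer cells of a type and less RNA per cell cannot be told apart. Of 15 basement membrane genes 4 fell, Col4a5 (log2 -1.44), Lama5 (-0.76), Hspg2 (-0.69) and Lamb2 (-0.65). With the GC offset 8 endothelial markers and 0 basement membrane genes were called. Without NOD replicate 2, or without NOD_insHEL replicate 1, 1 endothelial marker was called, and without NOD replicate 1 it was 19.

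Of 30 proliferation genes 7 rose and none fell, and the median log2 difference was 0.81. Top2a, the topoisomerase of dividing cells, was at 4.54, 8.14 and 8.06 CPM in NOD and at 26.8, 23.2 and 14.1 CPM in NOD_insHEL (log2 1.71, SE 0.37, edgeR adjusted p = 0.0201). Nusap1, a spindle protein, was at 1.49, 1.67 and 2.02 CPM in NOD and at 5.46, 5.80 and 4.23 CPM in NOD_insHEL (log2 1.65, SE 0.34, adjusted p = 0.00848). In both genes every transgenic library was above every other one. Mki67 was at 9.66, 15.1 and 12.4 CPM in NOD and at 35.3, 30.5 and 11.3 CPM in NOD_insHEL (log2 1.15, SE 0.36, adjusted p = 0.0853), the shallow library lying within the NOD range. Ccnd2, a D-type cyclin, rose from 781 ± 75.9 to 1080 ± 112 CPM (SD, n = 3; log2 0.47, adjusted p = 0.0173). Ccna2, Kif11, Tpx2 and Cenpe were the other called genes, and Pbk, a mitotic kinase, rose from 2.54 ± 0.488 to 10.3 ± 3.70 CPM (log2 2.12, adjusted p = 0.00852). The GC offset left 1 of the 30 called, although the median was 0.82, and without NOD_insHEL replicate 1 or 2 none was called.

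Few immune genes were called, but class II and interferon genes were called lower at a higher share than all genes. Siglech, a lectin of plasmacytoid dendritic cells and microglia, was at 5.45, 4.65 and 4.32 CPM in NOD and at 0.288, 0.396 and 1.41 CPM in NOD_insHEL. The transgenic libraries were all lower (log2 -3.34, SE 0.47, edgeR adjusted p = 0.00135), and it fell on the other background too (log2 -1.79, adjusted p = 0.0126). The transgenic Siglech values are at the floor of 3 counts in each library (0.287, 0.395 and 1.41 CPM), so the size of the fall is uncertain. Csf1r, the receptor of macrophage growth factor, fell from 21.9 ± 3.80 to 14.8 ± 0.579 CPM (SD, n = 3; log2 -0.58), and Lyz2, mouse lysozyme of myeloid cells, was at 17.8, 23.8 and 27.4 CPM in NOD and at 64.8, 65.3 and 28.2 CPM in NOD_insHEL (log2 1.28, SE 0.31, adjusted p = 0.0370). Lyz2 was thus high in transgenic replicates 1 and 2 and near the NOD libraries in replicate 3. These were the 3 called of 24 macrophage and dendritic cell markers, whose median was -0.01. Of 11 class II antigen presentation genes 2 fell, H2-Eb1 from 65.7 ± 14.0 to 37.4 ± 7.42 CPM (log2 -0.85, adjusted p = 0.00654) and the invariant chain Cd74 by 0.60. Of 45 interferon-stimulated genes 3 fell and none rose (median -0.19). The shares called lower were 18.2% of class II and 6.67% of interferon genes, beside 3.18% of all genes. At an unadjusted edgeR p under 0.05, 5 of the 11 and 13 of the 45 were lower, and 0 and 1 higher. Over all 15352 genes 1739 were lower at that threshold. With the GC offset 1 class II gene and 3 interferon genes were called lower, and 1 interferon gene higher. Mx1 was at 2.06, 10.5 and 4.75 CPM in NOD and at 1.15, 0.396 and 1.41 CPM in NOD_insHEL (log2 -2.70, SE 0.61, adjusted p = 0.0173), and Oasl1 and Irf7 fell by 1.79 and 1.14. The Mx1 values of NOD_insHEL replicates 2 and 3 are at the same floor of 3 counts. NOD replicate 2 had the highest Mx1, Oasl1 and Irf7, and without it, or without NOD_insHEL replicate 1 or 2, none of the 45 was called. None of 23 NF-kappaB and inflammatory genes was called by edgeR or DESeq2, and 0 had an unadjusted p under 0.05.

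Spp1, the secreted matrix protein osteopontin, which duct cells and macrophages make, had one of the strongest falls. It was at 88.7, 147 and 91.7 CPM in NOD and at 21.6, 24.9 and 10.3 CPM in NOD_insHEL, with no overlap (log2 -2.42, SE 0.30, edgeR adjusted p = 0.00432). The difference was -0.36 on the other background, and the test between backgrounds gave -2.07 (adjusted p = 0.132). Muc1, a mucin of duct lining, fell from 6.06 ± 3.08 to 1.34 ± 0.358 CPM (SD, n = 3; log2 -2.07, adjusted p = 0.00912). Both are among 3 of 17 duct markers that fell, and Atp1b1 rose by 0.43, while the summed level of duct markers, given above, overlapped between the groups. None of 29 acinar markers was called by edgeR or DESeq2 and 1 had an unadjusted p under 0.05, with a median log2 difference of -1.45 and 17 of the 29 without overlap between the groups. This depended on which libraries entered the fit: with only the 6 NOD and NOD_insHEL libraries, 14 of 24 acinar markers tested were called lower, at the same median of -1.45, beside 759 genes called higher and 607 lower of 14436 tested. Alpha cell markers had no call among 19 by either tool, with 2 at an unadjusted p under 0.05, and Gcg, glucagon, was at 22047, 6721 and 20159 CPM in NOD and at 29090, 22886 and 20030 CPM in NOD_insHEL (log2 0.56, SE 0.63, adjusted p = 0.657).

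The other strong changes, taken as the 12 highest and 12 lowest log2 differences among called genes with at least 5 CPM in the higher group and no overlap, were of mixed function. Gucy2c, the receptor of guanylin, was at 8.18, 9.96 and 5.62 CPM in NOD and at 25.7, 31.1 and 20.2 CPM in NOD_insHEL (log2 1.70, SE 0.18, edgeR adjusted p = 2.92e-05). Smoc1, a matrix protein that binds calcium, was at 4.54, 5.81 and 4.32 CPM in NOD and at 22, 17.7 and 9.86 CPM in NOD_insHEL (log2 1.83, SE 0.23, adjusted p = 4.16e-04). Both were also higher on the other background, by 1.33 and 1.52, and both were called in every test that left out 1 library. Slc28a2, a nucleoside transporter, Slfn9, Dapl1, Pcdhb11, Dach2 and Cfap43 rose by 1.37 for Cfap43 to 1.83 for Slc28a2. Among the genes that fell, Ces1d, a carboxylesterase, was at 7.68, 10.1 and 2.88 CPM in NOD and at 1.05, 1.45 and 0 CPM in NOD_insHEL (log2 -2.72, adjusted p = 0.00734), the 0 lying in the shallow library. Fgfr3, a fibroblast growth factor receptor, fell by 2.08 and Kcnj12, an inward rectifier potassium channel, by 1.90 on the log2 scale. Tmem45a, Scara3, Emid1 and Inmt fell as well, with differences between -1.55 for Inmt and -1.72 for Tmem45a. Ces1d, Slfn9 and Pcdhb11 have near-identical relatives in clusters, so that their counts are uncertain.

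Other pathways held few calls, some at shares above those of all genes. Of 29 genes of cholesterol and fatty acid synthesis 3 fell (10.3%, beside 3.18% of all genes). Among them were Mvk, mevalonate kinase (log2 -0.93), and the regulator Srebf2 (-0.38). At an unadjusted edgeR p under 0.05, 10 of the 29 were lower and 1 higher, beside 1739 lower and 1875 higher of 15352. DESeq2 called 5 lower, beside 593 of all genes, and with the GC offset 2 were called lower. Of 48 nuclear genes of oxidative phosphorylation 3 rose, Atp5f1, Ndufa1 and Uqcrc2, and 1 fell, Ndufs7. Of 74 cytosolic ribosomal protein genes 1 fell, Rpl10a, and the median was -0.14. Of 28 p53 targets Rrm2b (log2 0.48) and Gadd45a (0.62) rose, and of 16 genes of the Bcl2 family Bik fell (-1.51). The antioxidant enzymes Prdx1 and Prdx4, the second of the ER, rose by 0.47 and 0.55, and Gstm1 fell by 0.65. Of 19 Wnt pathway genes Rspo4 (log2 0.94) and Fzd3 (0.66) rose and Lrp5 fell (-0.70). None of the 22 genes of double-strand break repair, 34 immediate early and heat shock genes, 19 clock genes, 24 genes of the TGF-beta and BMP pathway, 15 Schwann cell markers and 25 stellate cell and fibroblast markers was called by edgeR. Of these 139 genes 19 had an unadjusted p under 0.05, and DESeq2 called 3. Over all genes these were 3614 and 1404 of 15352. The lists were grouped because edgeR called none of their members. Their lower shares follow in part from that choice and do not show that these pathways were unchanged. Among 28 genes of hypoxia and glycolysis, Pdk1 rose by 0.61 while Ankrd37 and Epas1 fell by 1.14 and 0.50, and among 31 lysosomal genes Atp6v1h rose by 0.36 and Cln3 fell by 0.72. Of 17 angiogenic factors and receptors Nrp1 fell (log2 -0.43), and of 12 delta, PP and epsilon cell genes 2 rose, among them Pdyn (0.89). With the GC offset none of 30 antioxidant genes was called. The offset gave 1 higher and 0 lower for oxidative phosphorylation, the Bcl2 family, p53 targets and the delta, PP and epsilon list. It gave 0 higher and 1 lower for hypoxia, ribosomal and angiogenic genes, and 1 each way for Wnt and lysosomal genes.

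Of the 1084 called genes, 77 were called in the same direction whichever of the 6 libraries was left out, 48 higher and 29 lower, and 70 of these, 47 higher and 23 lower, were called with the GC offset as well. Those 70 include 5 of the secretory pathway lists (Pdia3, Edem3, Ssr3, Copb1, Copb2), 5 of beta cell function, and 0 endothelial markers. As only 70 of all 15352 genes tested are in the set, 0 of 27 endothelial markers does not set that list apart. The set is also limited by the fit without NOD_insHEL replicate 1, which called 59 genes higher and 48 lower in all. Nucb2, the precursor of nesfatin, was at 245, 267 and 233 CPM in NOD and at 609, 527 and 405 CPM in NOD_insHEL (log2 1.05, SE 0.15, edgeR adjusted p = 0.00139; 0.89 with the offset). Emilin1, a glycoprotein of elastic fibres, rose from 58.3 ± 13.8 to 110.1 ± 6.83 CPM (SD, n = 3; log2 0.92), and 1.25 with the offset. Gas6, the ligand of the TAM receptors, fell from 53.7 ± 11.2 to 29.5 ± 1.23 CPM (log2 -0.87), and -0.66 with the offset. H2-K1, Pcsk1, Cpe, Pam, Syt4, Gucy2c and Smoc1 are on the higher side of the 70, and Siglech, Spp1, Fgfr3 and Mgst1 on the lower. Of these, Siglech was at the floor of 3 counts in NOD_insHEL.

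**Figure D4:**
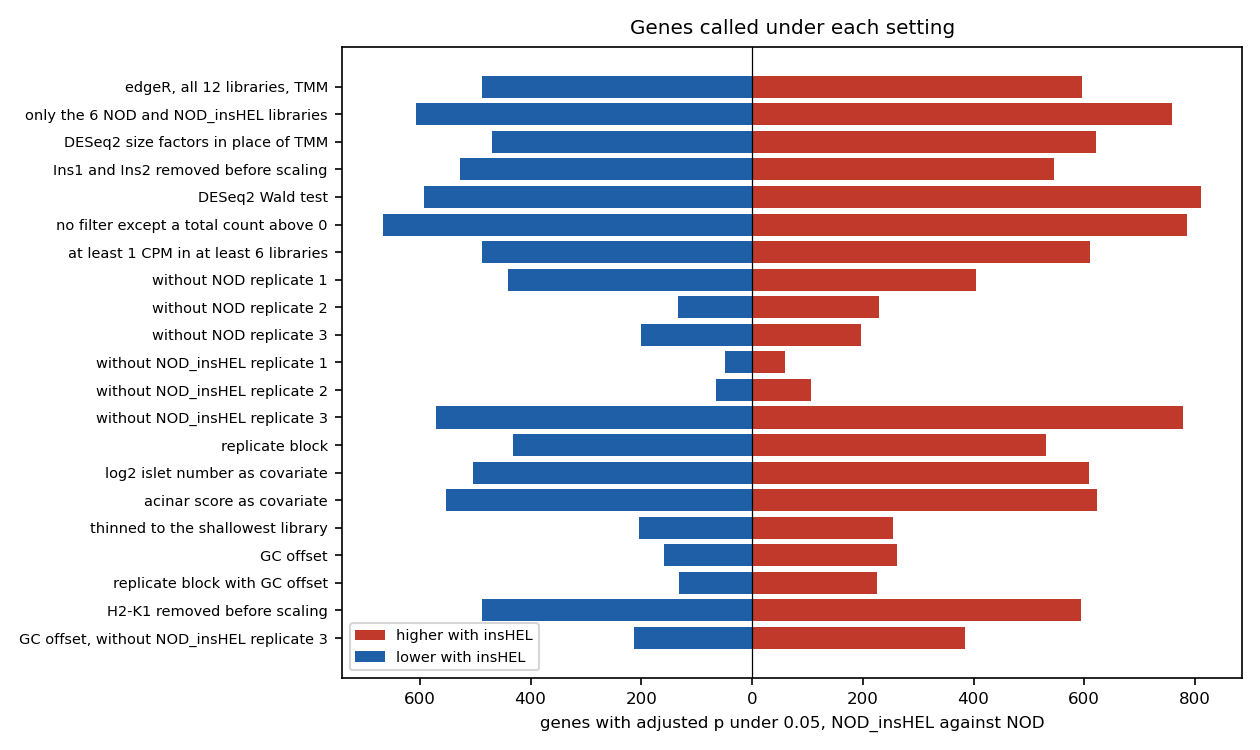
Number of genes called higher (right) and lower (left) in NOD_insHEL under each setting. The count falls from 1084 to 107 without NOD_insHEL replicate 1 and to 421 with the GC offset.

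Called genes were spread over the genome, from 5.88% of the genes tested on chromosome 16 to 8.51% on chromosome 3. Among 232 windows of 10 Mb with at least 20 genes tested, the highest share was 9 of 42 genes (21.4%), at chr13:70000001-80000000 of GRCm38. That window holds Pcsk1, described above, and Slc12a7, a potassium-chloride cotransporter, which was at 111, 107 and 87.6 CPM in NOD and at 52.6, 49.9 and 57.3 CPM in NOD_insHEL (log2 -0.95, SE 0.15, edgeR adjusted p = 0.00330). Ell2, Rhobtb3, Ttc37, Clptm1l, Ccdc127 and 2210408I21Rik were higher there, by 0.47 for Ccdc127 to 0.72 for Ell2, and Brd9 was lower, so the directions were mixed. The window was the highest of all that were looked at. Where the transgene is inserted was not analysed here.

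The transgene effect in NOD differed from that in B10 in few genes by the test of the difference. At an edgeR adjusted p under 0.05 there were 9 (0.0586%), and 1873 at an unadjusted p under 0.05. On the B10 background 628 genes were called higher (4.09%) and 424 lower (2.76%), and the B10 and NOD effects share no library. In the labels the B10 libraries are numbered in a run of their own, apart from the 9 others, which are numbered from 1 to 29; what this numbering stands for cannot be told apart from the absence of the transgene in B10, and the acinar sum fell there from 3967 to 4998 CPM to 199 to 2814 CPM. Of 27 cell adhesion and axon guidance genes 4 rose and 1 fell in NOD, while 0 rose and 6 fell in B10. Chl1, a neural adhesion molecule, was at 19.0, 20.4 and 21.7 CPM in NOD and at 41.9, 33.6 and 45.1 CPM in NOD_insHEL, while it was at 18.6 CPM on average in B10 and 9.82 in B10_insHEL. The 2 effects were opposite, 0.97 and -0.90, and differed by 1.87 (SE 0.30, adjusted p = 0.0309). Slitrk6, a neuronal transmembrane protein that islet cells also express, was at 123, 92.7 and 108 CPM in NOD and at 153, 160.2 and 162 CPM in NOD_insHEL (log2 0.55, adjusted p = 0.00950), against -0.32 in B10. Dpp4, the peptidase that inactivates incretins, rose by 0.46 in NOD and fell by 1.36 in B10. Of the endothelial markers, Flt1, a VEGF receptor, fell by 0.45 in NOD and rose by 0.37 in B10 (difference -0.82, adjusted p = 0.0490), and Podxl fell by 0.60 and rose by 0.42 (difference -1.03, adjusted p = 0.0309). Nrcam, a relative of Chl1, was at 17.4, 19.3 and 17.4 CPM in NOD and at 39.2, 47.2 and 23.9 CPM in NOD_insHEL (log2 1.07, adjusted p = 0.00906). Nrcam was not among the 9 genes called in the test of the difference.

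**Figure D5:**
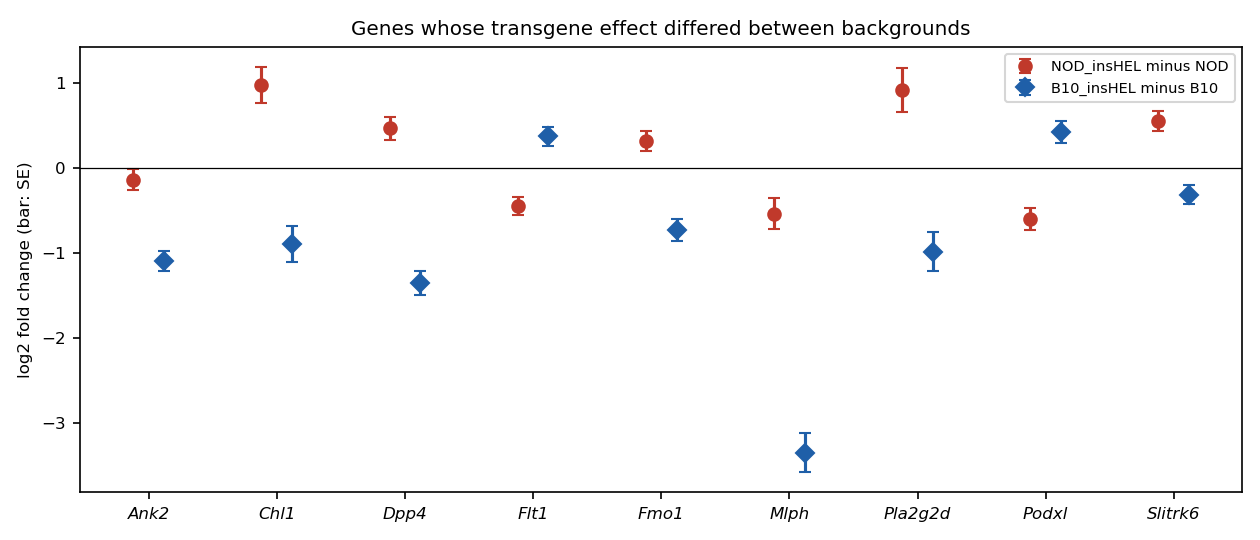
Log2 effect of the transgene with its SE in NOD (circles) and in B10 (diamonds) for the 9 genes whose effect differed between the backgrounds. Chl1, Dpp4, Fmo1, Pla2g2d and Slitrk6 are above 0 in NOD and below 0 in B10, Flt1 and Podxl are the reverse, and Mlph lies at -0.54 in NOD and -3.35 in B10.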

How the data were processed

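RNA from islets of 12 mice was sequenced from stranded mRNA libraries. The authors deposited raw counts per Ensembl gene for 38561 genes; the submitters' processing notes name cutadapt, TopHat2 2.0.8b, HTSeq, DESeq and the build GRCm38. The counting strand and mode are not given in the sources used here, so overlapping genes are uncertain. Symbols, positions and GC content came from GENCODE vM21 (36639 identifiers matched), promoters from RefSeq GRCm38.p6. Orientation of the promoters was checked: of 25174, 19576 had the bases after the start site in a transcript of the gene and 0 had the reverse complement of the first bases.

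Counts were fitted in R 4.3.3 with edgeR 4.0.16: filterByExpr, TMM, 4 group means over all 12 libraries and a robust two-sided quasi-likelihood test, its p-values adjusted by Benjamini-Hochberg across 15352 genes (biological coefficient of variation 0.142). The script was tested on simulated data. DESeq2 1.42.0 was an alternative test. Titles group the libraries, 1 mouse each per the labels; no replicates were duplicates (chi-square per gene 4.79 to 19.4 within groups). Floors are 3 counts and cover counting error only.

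Members and lists were chosen with earlier results of these data known. Named genes were the 12 highest and 12 lowest log2 differences among called genes without overlap, reaching 5 CPM and having a gene name; up to 4 called members per list by adjusted p; a fixed set of islet and stress genes; and the called genes of the top 10 Mb window. Some genes that the rule names are not reported here. Further list members, the 9 genes of the background difference and the genes said to be chosen late were added after values were seen, as were the settings with the GC offset (lowess span 0.3) and with H2-K1 removed before scaling (1082 calls). The other settings were the 6 libraries alone, DESeq2 size factors, insulin genes removed, other filters, each library left out, replicate block, islet number, acinar score and thinning.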

Additional observations from a re-analysis of the deposited data

Results flagged for a closer look

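For 9 genes the transgene effect in NOD differed from that in B10 by edgeR's test of the difference. As the NOD effect minus the B10 effect on the log2 scale, the differences were 2.81 for Mlph, 1.90 for Pla2g2d, 1.87 for Chl1, 1.81 for Dpp4, 1.04 for Fmo1, 0.96 for Ank2, 0.88 for Slitrk6, -0.82 for Flt1 and -1.03 for Podxl, with adjusted p-values from 5.54e-05 to 0.0490. Mlph, melanophilin of organelle transport, was at 27.9 CPM in NOD, 19.9 in NOD_insHEL, 14.9 in B10 and 1.45 in B10_insHEL. Ank2, a membrane skeleton protein, was at 93.9, 86.6, 195 and 90.9 CPM in the same order, so that its B10 libraries were the ones apart. Fmo1, a flavin monooxygenase, was at 40.8, 50.5, 18.9 and 11.3 CPM, and Pla2g2d, a secreted phospholipase, at 4.13, 7.71, 10.9 and 5.45 CPM. Description numbers separate the B10 libraries without the transgene from the other 9, and their part in these differences cannot be told apart from the absence of the transgene in B10.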

How the results depend on the processing

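The number of genes called, 1084, lay between 107 and 1348 when 1 library was left out. It was 459 with libraries thinned to the shallowest, 421 with the GC offset, 358 with the replicate block and GC offset together, and 598 with the offset and without NOD_insHEL replicate 3. The replicate number as a block gave 961 calls. Same-numbered libraries correlated at only -0.05 to 0.02, and the other pairs reached 0.04 at most. No pairing by number was seen, which does not exclude one, and no crossing was tried. Genes whose effect differed between backgrounds, 9, numbered 83 by DESeq2, 161 without a filter on low counts, 4 with islet number and 48 with the acinar score as covariate, 2 with block and GC offset, and 2 to 20 with 1 library left out. For the same left-out libraries, members called ran from 1 to 14 for chaperones, 1 to 16 for translocation, 2 to 15 for ER-Golgi transport, 1 to 19 for endothelial markers, 0 to 9 for proliferation, and 5 to 10 higher and 0 to 2 lower for beta cell function. GC offset and block with offset gave 8 and 6 chaperones, 6 and 5 translocation genes, 7 and 4 ER-Golgi genes, 8 and 7 endothelial markers, 1 and 1 proliferation genes, and 0 and 0 lower beta cell function genes. Translocation had 10 calls with the acinar covariate and 10 thinned, proliferation 2 thinned, and endothelial markers 20 without the filter. Signs turned for genes that were never called: Atf4 ran from -0.18 to 0.01 with 1 library left out (0.01 without NOD replicate 1) and was 0.09 with the GC offset, 0.08 with block and offset and 0.13 with the offset and without NOD_insHEL replicate 3; Ins2 was -0.03 without NOD_insHEL replicate 3 and -0.05, and Ins1 -0.07, with the acinar covariate. The cause was not tested. In 5 Mb windows the highest share called was 20.6%. The shallowest library limits genes near 1.41 CPM, and with 3 mice a group small effects can be missed.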
